A study of Mus musculus with 8 samples.

Results

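The interferon-inducible GTPases examined here were Gbp2, Gbp3, Igtp, Irgm1, Irgm2, Iigp1, Tgtp1 and Ifi47. They were measured with 14 of the 25697 probes of an Illumina bead array, taken as all probes whose platform symbol was one of these 8 gene symbols. Gbp2 and Irgm1 had 3 probes each, Gbp3 and Iigp1 had 2, and the other 4 genes had 1. The arrays held RNA from primary limb bud cells, a mixture of cells from mouse forelimb and hindlimb buds at embryonic day 11.5, cultured for 6 h before treatment. All cells, controls included, came from the strain 129XB6-Sox4fl/fl11fl/fl, in which the transcription factor genes Sox4 and Sox11 can be cut by Cre recombinase. The cells were left untreated (2 arrays), or received for 24 h an adenovirus expressing LacZ (AdeLacZ, 3 arrays) or Cre (AdeCre, 3 arrays). The labels name untreated cells "Wild type" although they carry the same floxed alleles, and they give no time in culture for them, so the virus and the time in culture cannot be told apart. No group received Cre without floxed alleles, so Cre itself and the deletion cannot be told apart either. Nothing states that replicates were separate cultures or litters, and p-values therefore measure the spread between these arrays, which may be technical.

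A probe counted as measured on an array when its intensity exceeded a detection floor of 8.87 to 8.93 intensity units, set from the negative values of that array, and 15944 probes above it on at least 2 arrays were tested. Sox4, the targeted gene with a probe, read 66.5 to 78.1 intensity units on the AdeLacZ arrays and 10.9 to 12.9 on the AdeCre arrays (log2 change -1.31 ± 0.13, SE, limma adjusted p = 0.00114), which matches the labels of these groups. Of the genes that mark limb mesenchyme, all 16 with a probe were tested. On the brightest probe of each, Prrx1, Msx1, Twist1 and Twist2 read at least 371 intensity units on every array. Tbx15, Hoxd11 and Pitx1 were above the floor on 2, 3 and 4 arrays. Other Prrx1 probes were dimmer, and the dimmest was above the floor on 6 arrays.

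Interferons are secreted proteins, and those of type I are released by cells on sensing a virus. Interferons bind receptors that activate JAK kinases and STAT transcription factors, and these switch on many genes. Guanylate-binding proteins such as Gbp2 and Gbp3 are large GTPases that coat the membranes of pathogen-containing vacuoles in mouse cells. Immunity-related GTPases act beside them. Iigp1, Tgtp1 and Ifi47 belong to the branch of effectors that load onto such vacuoles, whereas Irgm1, Irgm2 and Igtp are regulators that sit on host membranes and keep the effectors inactive there. Both families are best known as targets of interferon gamma and also respond to type I interferon.

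The RefSeq promoters of the members (build GRCm38.p6) are shown because several of them hold the same short motifs within a short distance of the transcript start. A link between these motifs and the changes below was not tested. Windows from 250 bases before to 50 bases after a start were available for 7 of the 8 genes, with 2 starts for Gbp3. They were searched on both strands for the core of the interferon-stimulated response element, which is GAAA, any 2 bases and GAAA again, and for the interferon gamma activated site, TTCNNNGAA. No match of one motif overlapped a match of the other. The stretches below hold the matches with up to 15 bases on each side, read 5′ to 3′ on the strand of the gene, with matches in capitals. They lie at chr3:142620589-142620628 (Gbp2, + strand), chr3:142559984-142560029 (Gbp3, + strand), chr11:58199496-58199546 (Igtp, + strand), chr11:58214887-58214937 (Irgm2, + strand), chr11:48871421-48871465 (Irgm1, - strand) and chr11:48992299-48992349 (Tgtp1, - strand).
Gbp2: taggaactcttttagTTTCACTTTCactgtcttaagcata
Gbp3: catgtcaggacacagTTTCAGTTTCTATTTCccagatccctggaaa
Igtp: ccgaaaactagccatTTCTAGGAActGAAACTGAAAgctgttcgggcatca
Irgm2: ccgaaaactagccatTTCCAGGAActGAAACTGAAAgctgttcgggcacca
Irgm1: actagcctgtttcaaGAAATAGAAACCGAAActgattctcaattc
Tgtp1: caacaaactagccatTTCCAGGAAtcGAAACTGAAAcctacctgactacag

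The response element core was present in the windows of 6 genes, against 3.44% of all 32851 promoter windows of the same length. Gbp3 and Irgm1 each held 2 overlapping copies, and in Gbp2 and Gbp3 the match lay on the opposite strand. Igtp, Irgm2 and Tgtp1 also held the gamma activated site, found in 8.3% of all windows, and 0.454% of all windows held both motifs. In each of these 3 promoters 2 bases separated the gamma activated site from the response element that followed it. The Igtp and Irgm2 stretches differed at 2 of 51 bases, and the Tgtp1 stretch differed from them at 17 and 15. Igtp and Irgm2 stand next to each other on chromosome 11 with no other protein-coding gene between them. The second Gbp3 start and the Ifi47 window held neither set of letters. A match is a description of the letters and not evidence of a bound site.

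**Figure D1:**
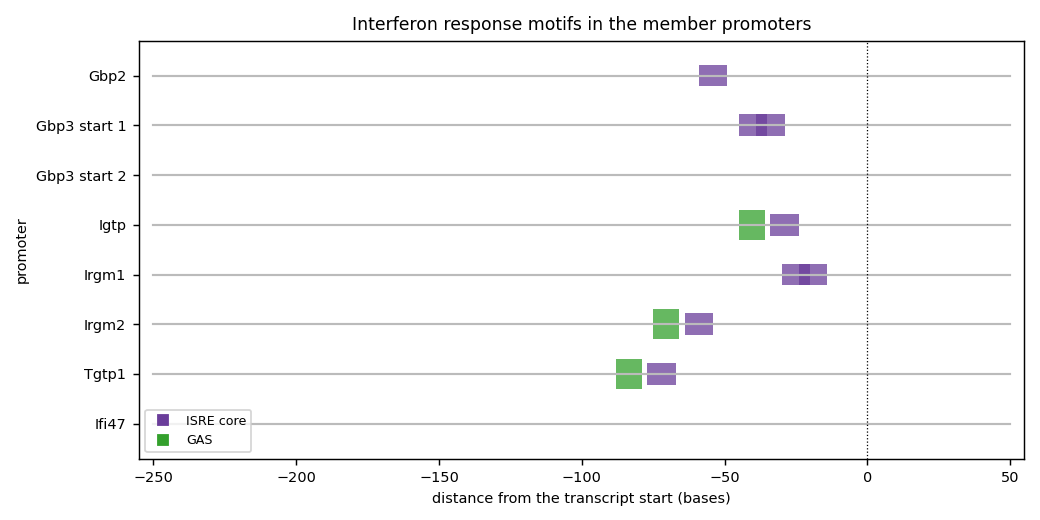
Positions of the response element core (purple) and the gamma activated site (green) in the promoter windows of the members, by distance in bases from the transcript start (dotted line). Matches lay between 88 and 15 bases before the start, and the second Gbp3 start and Ifi47 had none.

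After AdeLacZ, the guanylate-binding protein genes, all 3 regulator genes and the effector gene Ifi47 were higher than in untreated cells. In this comparison 9 of the 14 probes, covering 6 genes, passed limma's test as higher and 0 as lower, at an adjusted p under 0.05 and also without adjustment. Over all tested probes, 2.73% passed as higher and 2.50% as lower. Shares of tested probes that passed, here and below, are after adjustment, and none were counted without it. The same 9 probes had no overlap between the arrays of the groups, which held for 18.9% of all tested probes as higher and 19.4% as lower. Of the other 5 probes, 2 were tested and did not pass, and 3 were never above the floor. The median log2 change was 1.43 over the 11 tested probes and -0.0069 over all tested probes, and 1 of the 9, the dim Gbp2 probe ILMN_3047389, had entered the test through AdeLacZ arrays alone. With a floor on at least 3 arrays, which leaves it out, 8 of 9 tested member probes passed as higher. AdeCre cells were compared with the same untreated arrays, so this second comparison is not independent of the first. There 8 probes of the same 6 genes passed as higher and 0 as lower (1 lower, Iigp1, without adjustment), while 6.61% of all tested probes passed as higher and 7.08% as lower. The median log2 change was 1.29, and over all tested probes 0.004. These 8 probes had no overlap between the groups, found for 21.9% (higher) and 21.3% (lower) of all tested probes.

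Gbp3 had the largest log2 change of the members in AdeLacZ cells. Its probe ILMN_1244513 read 19.4 and 99.5 intensity units on untreated arrays 1 and 2, 417, 610 and 487 on AdeLacZ arrays 1 to 3, and 287, 395 and 332 on AdeCre arrays 1 to 3. All 6 virus-treated arrays lay above both untreated arrays, and untreated array 2 stood between. The log2 change was 2.73 ± 0.32 (SE, adjusted p = 0.00151) in AdeLacZ and 2.20 ± 0.32 (adjusted p = 0.0022) in AdeCre cells. The other Gbp3 probe, ILMN_2918002, read 19.9 and 136.7 on the untreated arrays, 531, 630 and 533 with AdeLacZ, and 310, 434 and 397 with AdeCre. It gave nearly the same log2 changes, 2.71 ± 0.37 (adjusted p = 0.00286) and 2.16 ± 0.37 (adjusted p = 0.00466), and again no virus-treated array fell among the untreated ones.

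The Gbp2 probes differed in brightness. ILMN_3122961 read 20.8 and 85.8 on the untreated arrays, 294, 412 and 376 with AdeLacZ, and 236, 330 and 299 with AdeCre. Its log2 changes were 2.34 ± 0.28 (adjusted p = 0.00179) and 2.05 ± 0.28 (adjusted p = 0.00171), again with no overlap between virus-treated and untreated arrays. A dim Gbp2 probe, ILMN_3047389, was above the floor on 2 arrays only, AdeLacZ 1 (12.1) and AdeLacZ 3 (17.8). With untreated cells below the floor, its rise in AdeLacZ cells is given as at least 1.10-fold (adjusted p = 0.00151). The test is no independent support, since the AdeLacZ arrays had let the probe through the filter, and the call was lost without background correction (adjusted p = 0.359). It passed in AdeCre cells too (adjusted p = 0.0158), but both groups there were below the floor, no size is given, and the call was lost without untreated replicate 1 (adjusted p = 0.146). The third Gbp2 probe, ILMN_2605602, ran from -8.54 to 5.73 and was below the floor on every array.

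**Figure D2:**
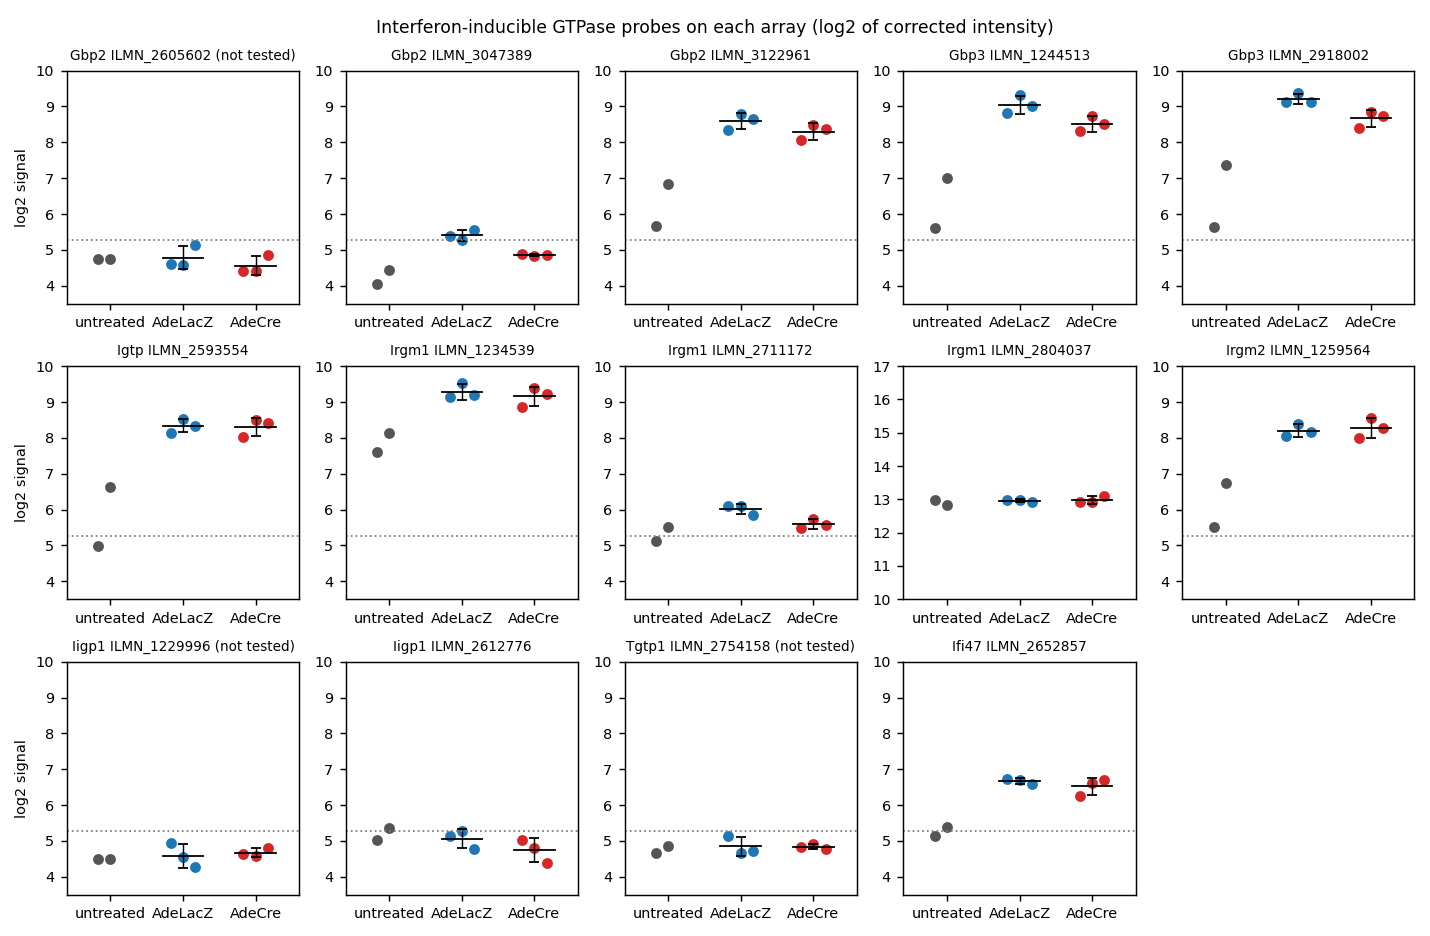
Log2 signal of the 14 probes on each array, with replicates in numerical order from left to right, the mean and SD (bars) of AdeLacZ and AdeCre arrays (n = 3 each), and the floor as a dotted line. Untreated arrays are shown singly. The Gbp3, Igtp and Irgm2 probes and the bright Gbp2 probe stood high on all 6 virus-treated arrays, while the Tgtp1 and Iigp1 probes and the other Gbp2 probes stayed near or below the floor, and the bright Irgm1 probe (axis from 10) was level.

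Among the regulators, Igtp read 2.20 and 69.2 intensity units on untreated arrays 1 and 2, 254, 337 and 295 with AdeLacZ, and 231, 332 and 312 with AdeCre. Its log2 changes against untreated cells were 2.53 ± 0.36 (adjusted p = 0.00325) and 2.50 ± 0.36 (adjusted p = 0.00199). It was below the floor on untreated array 1, so its size rests in part on a value not above background. In AdeCre cells its log2 change was above those of both Gbp3 probes. Irgm2, its chromosomal neighbour, read 15.9 and 77.3, then 237, 306 and 256 with AdeLacZ, and 228, 348 and 280 with AdeCre, with changes of 2.08 ± 0.29 (adjusted p = 0.00309) and 2.16 ± 0.29 (adjusted p = 0.00154). Neither gene showed overlap between untreated and virus-treated arrays.

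The 3 Irgm1 probes gave 3 different pictures. ILMN_1234539 read 164 and 250 on the untreated arrays, 530, 717 and 557 with AdeLacZ, and 435, 639 and 568 with AdeCre, for log2 changes of 1.43 ± 0.20 (adjusted p = 0.00296) and 1.29 ± 0.20 (adjusted p = 0.00262). ILMN_2711172 was dimmer, at 4.92 and 16.2 on the untreated arrays, 38.7, 38.3 and 28.2 with AdeLacZ, and 14.7, 23.8 and 18.1 with AdeCre. It was above the floor on 1 of the 2 untreated arrays. It passed in AdeLacZ (0.70 ± 0.15, adjusted p = 0.0229) but not in AdeCre cells (0.28 ± 0.15, adjusted p = 0.239), where array 1 lay within the untreated range. ILMN_2804037 read between 7252 and 8835 on all arrays, and its changes were 0.06 ± 0.11 (adjusted p = 0.81) and 0.08 ± 0.11 (adjusted p = 0.706). Averaged over the 3 probes, the Irgm1 log2 change was 0.73 ± 0.13 (adjusted p = 0.00892) in AdeLacZ and 0.55 ± 0.13 (adjusted p = 0.017) in AdeCre cells. The files do not show which transcripts each of these probes reads.

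Of the effectors, Ifi47 rose on its single probe. It read 5.39 and 11.95 on the untreated arrays, 76.8, 74.7 and 66.8 with AdeLacZ, and 46.8, 68.7 and 75.2 with AdeCre, and the changes were 1.42 ± 0.15 (adjusted p = 0.00104) and 1.27 ± 0.15 (adjusted p = 7.97e-04). It was above the floor on 1 of the 2 untreated arrays. Iigp1 did not pass. Its probe ILMN_2612776 exceeded the floor on untreated array 2 (11.6) and AdeLacZ array 2 (9.29) only, with changes of -0.14 ± 0.21 (adjusted p = 0.761) and -0.46 ± 0.21 (adjusted p = 0.17), and ILMN_1229996 was below the floor throughout. The Tgtp1 probe ran from -4.29 to 5.73 on the 8 arrays, all below the floor. A change in Iigp1 or Tgtp1 was thus not detectable with these probes, which does not show that their transcripts were absent. Tgtp1 has a close copy, Tgtp2, and reads of its probe cannot be assigned between them here.

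The untreated arrays differed from each other in the direction of the rise. Untreated array 2 exceeded untreated array 1 on every one of the 9 probes that rose with AdeLacZ, by 0.24 (Ifi47) to 1.75 (Gbp3, ILMN_2918002) on the log2 scale. Igtp, Ifi47 and the dim Gbp2 and Irgm1 probes were below the floor on untreated array 1, so their gaps are not exact. For Igtp, Irgm2, both Gbp3 probes and the bright Gbp2 probe this gap was larger than in 99.9% or more of all tested probes. Untreated array 1 was below untreated array 2, and that below all virus-treated arrays, in 8 of the 9. This order was found in 75.4% of all 435 probes that rose with AdeLacZ and in 7.73% of all tested probes, and so was seen well beyond these GTPases. On the linear scale, untreated array 2 had covered 16.5% to 24.5% of the way from untreated array 1 to the AdeLacZ mean for the bright Gbp2 probe, both Gbp3 probes, Igtp, Irgm2 and Irgm1 (ILMN_1234539). For Ifi47 it had covered 9.74%.

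The size of the rises therefore depended on the untreated array. Against untreated array 1 the AdeLacZ mean was higher by 3.43 (Gbp3, ILMN_1244513), 2.94 (Gbp2, bright probe), 2.69 (Irgm2) and 1.69 (Irgm1, ILMN_1234539) on the log2 scale, and for Igtp, below the floor there, by at least 3.06. Against untreated array 2 the differences of these 4 probes were 2.03, 1.75, 1.46 and 1.16, and that of Igtp was 1.71. All of these stayed above 0. With either untreated array left out, the fit kept adjusted p values of at most 0.0172 for Gbp3, Igtp, Irgm2, Ifi47 and the bright Gbp2 probe in both virus comparisons. Irgm1 (ILMN_1234539) missed the threshold in AdeLacZ without untreated replicate 1 (adjusted p = 0.0507). The dim Irgm1 probe missed it there as well, at 0.49 (adjusted p = 0.212).

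**Figure D3:**
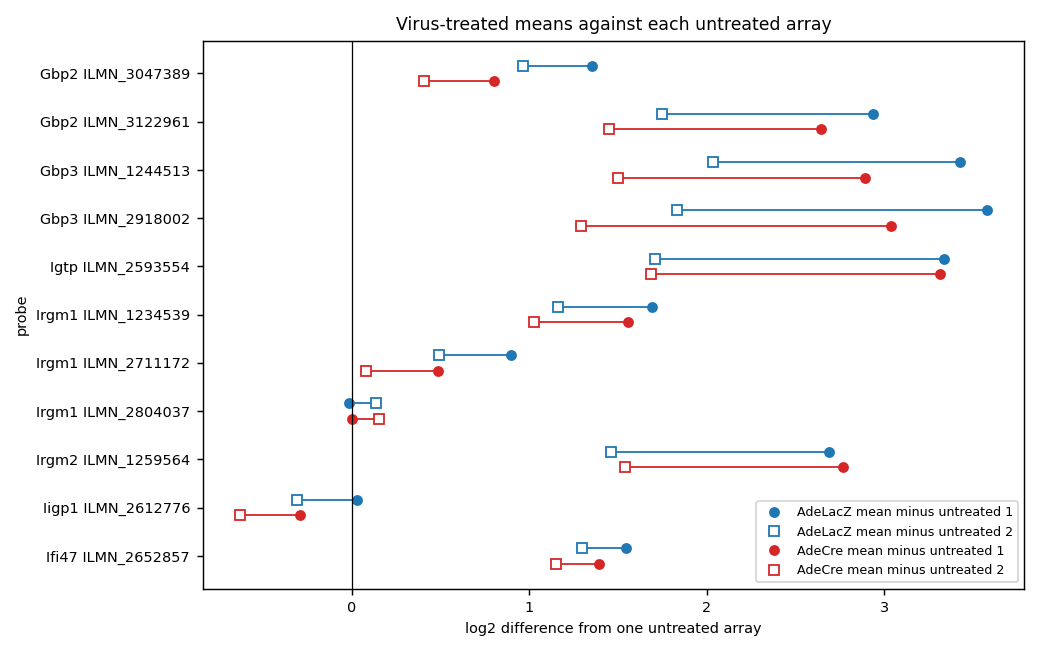
Log2 difference of the AdeLacZ (blue) and AdeCre (red) means from untreated array 1 (filled circles) and untreated array 2 (open squares) for the 11 tested probes. Lines join the values of a probe, and Igtp, Ifi47, Iigp1 and the dim Gbp2 and Irgm1 probes were below the floor on untreated array 1. The difference was smaller against untreated array 2 for all 9 probes that rose with AdeLacZ.

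AdeCre and AdeLacZ cells had both received virus, and between them 1 of the 14 probes, the dim Gbp2 probe, was lower and 0 were higher. Without adjustment 2 were lower, the other being the dim Irgm1 probe, and 0 higher. Over all tested probes, 3.44% passed as lower and 1.59% as higher after adjustment, and the share without adjustment was not counted. The log2 change was negative for 9 of the 11 tested probes, with a median of -0.29 beside 0.0106 over all tested probes. The dim Gbp2 probe had entered the test only through AdeLacZ arrays 1 and 3, the group where it was higher, so its call is not independent of the filter. With no filter it missed the threshold (adjusted p = 0.0598), and with a floor on at least 3 arrays it was left out and 0 member probes passed. It stood at 12.1, 8.89 and 17.8 intensity units on the AdeLacZ arrays and -0.27, -1.38 and -0.76 on the AdeCre arrays. With AdeCre below the floor, its fall is given as at least 1.10-fold (adjusted p = 0.0297). It did not pass without any 1 of the 3 AdeCre arrays (adjusted p up to 0.0872), and without any 1 of the AdeLacZ arrays it was either not tested or did not pass. The bright Gbp2 probe differed by -0.29 ± 0.25 (95% confidence interval -0.86 to 0.27, adjusted p = 0.55) and its groups overlapped.

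Both Gbp3 probes read lower on every AdeCre array than on any AdeLacZ array. The changes were -0.53 ± 0.29 (95% confidence interval -1.17 to 0.10, adjusted p = 0.314) and -0.54 ± 0.33 (-1.28 to 0.20, adjusted p = 0.381), and neither passed. The dim Irgm1 probe had the same lack of overlap at -0.42 ± 0.13 (-0.70 to -0.13, adjusted p = 0.0957). In all, 4 of the 11 tested probes had lower AdeCre values with no overlap, compared with 13.8% of all tested probes, and 0 had higher ones, compared with 14.6%. The 4 include the dim Gbp2 probe, which had entered the test through AdeLacZ arrays alone, and both probes of Gbp3, which read the same gene. The count is therefore not independent of the filter, nor a count of separate genes. The changes of Igtp (-0.02 ± 0.32, interval -0.73 to 0.69), Irgm2 (0.08 ± 0.26, interval -0.50 to 0.66), Ifi47 (-0.15 ± 0.13, interval -0.44 to 0.14) and Irgm1 (ILMN_1234539, -0.13 ± 0.18, interval -0.53 to 0.26) had intervals on both sides of 0, so shifts up to those limits could not be told from none at this number of arrays.

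The errors above rest on a spread shared over the 3 groups, untreated arrays included, and the untreated SD of Gbp3 (ILMN_2918002) was 1.24 (n = 2) beside 0.13 and 0.23 (n = 3 each) in AdeLacZ and AdeCre cells. Fitted on the 6 virus-treated arrays alone, the standard error of that probe was 2.52 times smaller, and the change of -0.54 had an interval of -0.84 to -0.24 (adjusted p = 0.0529). For the other Gbp3 probe the interval was -0.88 to -0.19 (adjusted p = 0.0812) and for the dim Irgm1 probe -0.67 to -0.16 (adjusted p = 0.0673). None of these 3 passed, and the dim Gbp2 probe did (adjusted p = 0.0227). In that fit the intervals of Igtp and Irgm2 narrowed to -0.35 to 0.31 and -0.26 to 0.42.

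**Figure D4:**
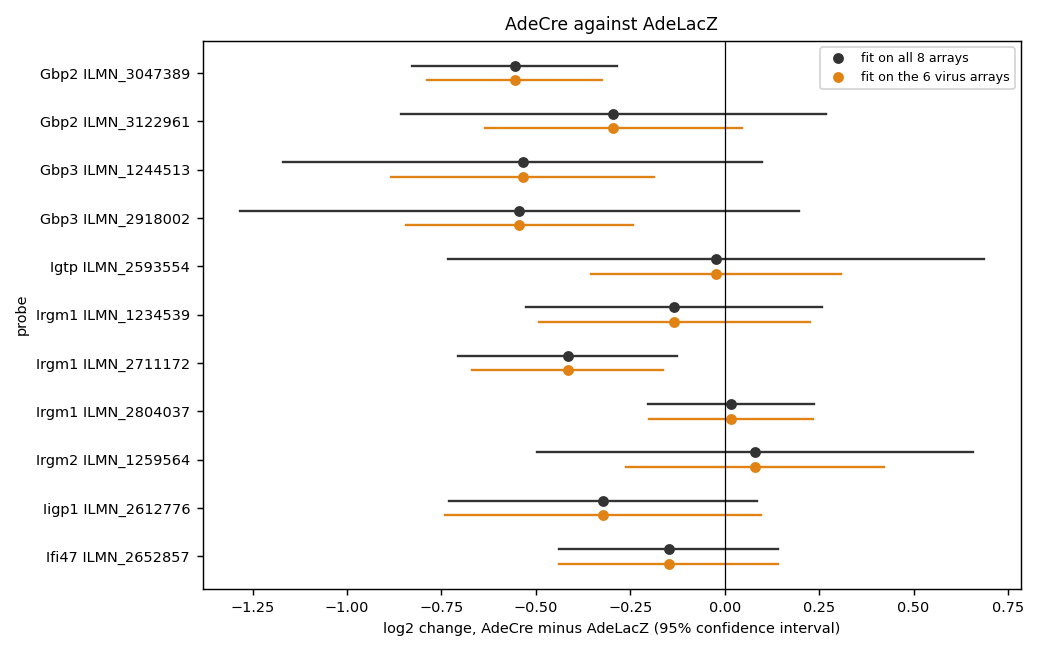
Log2 change of AdeCre against AdeLacZ cells for the 11 tested probes with its 95% confidence interval, from the fit on all 8 arrays (black) and on the 6 virus-treated arrays (orange). The Gbp3 intervals included 0 in the former and lay below 0 in the latter, where the adjusted p values were 0.0812 and 0.0529.

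Differences between member probes within an array were compared between the virus groups. Such a difference has no meaning as a level, and only its shift between groups is read. These pairs were chosen after their values were seen and were not tested. The log2 difference between Gbp3 (ILMN_1244513) and Irgm2 was 0.75, 0.93 and 0.85 on AdeLacZ arrays 1 to 3 and 0.30, 0.17 and 0.22 on AdeCre arrays 1 to 3. The difference between the same Gbp3 probe and Igtp was 0.66, 0.81 and 0.67 with AdeLacZ and 0.28, 0.23 and 0.08 with AdeCre. For the bright Gbp2 probe minus Irgm2 the values were 0.28, 0.40 and 0.51, then 0.05, -0.07 and 0.08. All 6 pairs of a guanylate-binding protein probe with Igtp or Irgm2 were lower on every AdeCre array, by 0.27 to 0.62 in the mean. The shifts were 0.30 to 0.67 on intensities without background correction. Igtp minus Irgm2 overlapped between the groups, at 0.13 ± 0.05 (SD, n = 3) and 0.03 ± 0.10 (SD, n = 3). A shift of this kind does not show which probe of a pair changed. The third regulator, Irgm1, was not paired. Its dim probe, like those of Gbp3, was lower on every AdeCre array, while its probes ILMN_1234539 and ILMN_2804037 overlapped between the groups. Whether such pairs divide guanylate-binding proteins from regulators was therefore not shown and not tested.

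**Figure D5:**
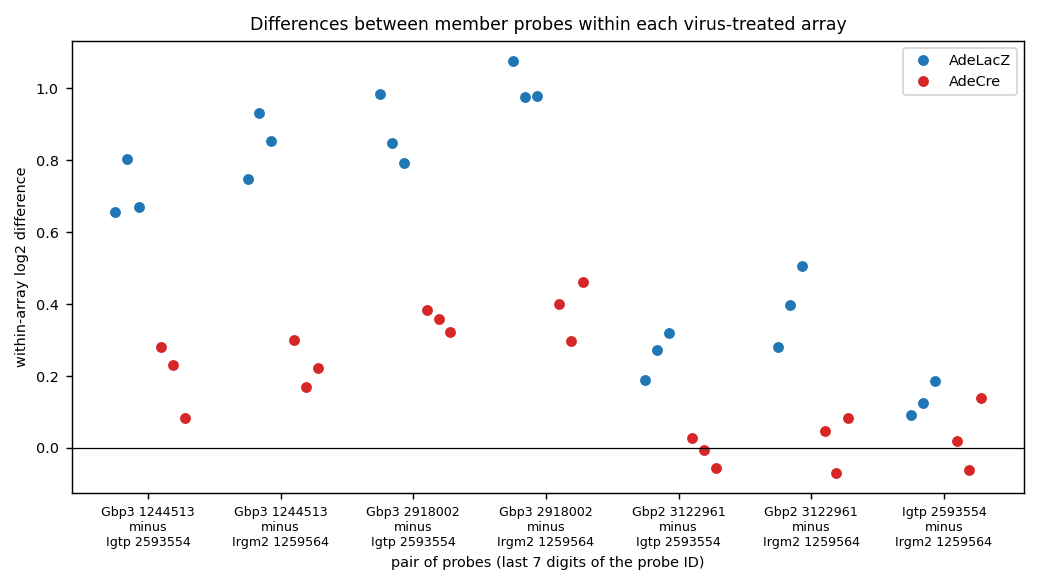
Within-array log2 differences between pairs of member probes on the 3 AdeLacZ (blue) and 3 AdeCre (red) arrays. The 6 pairs of a Gbp probe with Igtp or Irgm2 were lower on all AdeCre arrays, and Igtp minus Irgm2 overlapped.

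The order of the arrays within a group was shared by some of the induced probes. Of the 9 probes that rose with AdeLacZ, 6 were highest on AdeLacZ array 2 and 6 lowest on AdeLacZ array 1. On the AdeCre arrays 7 were highest on array 2 and 8 lowest on array 1. The 6 were the bright Gbp2 probe, both Gbp3 probes, Igtp, Irgm2 and Irgm1 (ILMN_1234539). Ifi47 was highest on AdeLacZ array 1 and AdeCre array 3. The 9 probes cover 6 genes and are not independent readings of an array. How often other probes had this order was not counted, so it is not shown to be particular to these GTPases.

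Other GTPases of the interferon-inducible families are described by the brightest tested probe of each gene, as are the lists after them. Over all 10772 tested genes 317 rose and 278 fell in AdeLacZ against untreated cells. In AdeCre cells 797 rose and 653 fell against untreated, and 196 rose and 300 fell against AdeLacZ cells. These counts over all genes are after adjustment. None were made without it, so unadjusted counts of a list have no background beside them. Of 17 such genes with a probe, 8 were tested, 4 rose in AdeLacZ against untreated cells and 0 fell, and the other 9 were not tested. The median log2 change of the 8 was 0.43, and that of all tested genes -7e-04. The 8 include Irgq and Irgc1, listed by family whether or not interferon induces them. These changed by -0.36 ± 0.11 (adjusted p = 0.0864) and -0.20 ± 0.19 (adjusted p = 0.591) in AdeLacZ against untreated cells. A dimmer Irgq probe passed as lower (-0.45 ± 0.11, adjusted p = 0.041). Mx2, a dynamin-like antiviral GTPase, changed by 1.98 ± 0.26 (adjusted p = 0.00228), from 2.06 and 38.6 intensity units on the untreated arrays to 151 to 159 with AdeLacZ. Gbp2b changed by 1.26 ± 0.17 (adjusted p = 0.00254), the giant GTPase gene Gvin1 by 0.83 ± 0.16 (adjusted p = 0.0142) and Gbp7 by 1.09 ± 0.21 (adjusted p = 0.0161). Mx2, Gbp2b and Gbp7 were above the floor on untreated array 2 but not on untreated array 1. Gvin1 and Gbp7 also had probes that were below the floor. In AdeCre against untreated cells 4 of the 8 rose and 1, Irgq, fell (-0.53, adjusted p = 0.0108). In AdeCre against AdeLacZ cells 0 of the 8 passed limma's test (1 higher without adjustment), and the log2 changes of Gbp2b and Gbp7 were 0.12 ± 0.15 and -0.04 ± 0.19. The probes of Gbp4, Gbp5, Gbp8, Gbp9, Gbp11 and Mx1 were below the floor on all arrays.

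The pathway upstream of the GTPases was measured unevenly. Of 17 receptor, JAK-STAT and interferon regulatory factor genes with a probe, 16 were tested. With AdeLacZ 5 rose and 0 fell against untreated cells (0 fell without adjustment either), with a median of 0.16. Irf7 rose at least 1.93-fold (adjusted p = 9.31e-04). It was above the floor on virus-treated arrays only, so this call is not independent of the filter. Irf9, the DNA-binding subunit of the factor that binds the response element, rose by 1.52 ± 0.20 (adjusted p = 0.00253) and its partner Stat2, below the floor on untreated array 1, by 1.38 ± 0.20 (adjusted p = 0.00376). Irf1, which binds similar elements and is induced by interferon gamma, rose by 0.81 ± 0.13 (adjusted p = 0.0068) on its brightest probe. Ifngr2, a chain of the interferon gamma receptor, rose by 0.48 ± 0.11 (adjusted p = 0.0266) on its brightest probe. The dimmer Ifngr2 probes, at 0.31 (adjusted p = 0.136) and 0.21 (adjusted p = 0.426), did not pass. In AdeCre against AdeLacZ cells Il10rb, a receptor chain shared by interleukin 10 and interferon lambda, was higher by 0.58 ± 0.14 (adjusted p = 0.041), and no other of the 16 passed.

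Most interferon genes could not be measured. Of 19 ligand genes with a probe, 6 were tested and 0 passed limma's test, with or without adjustment (median 0.16), and 11 were never above the floor. In AdeCre against untreated cells 1 passed, Ifna6, by 0.42 (adjusted p = 0.0372), while its other probe was below the floor on all 8 arrays. The single Ifnb1 probe and both Ifng probes were below the floor on all 8 arrays, with highest values of 5.13 and 6.70. Among 15 genes listed as negative regulators of the pathway, 14 were tested, 4 rose and 1 fell with AdeLacZ (median 0.15). Whether each of them, Isg15 included, restrains the pathway in mouse cells was not tested. Isg15 rose by 3.14 ± 0.40 (adjusted p = 0.00199), Usp18 by 3.52 ± 0.63 (adjusted p = 0.0104) Trim30a at least 1.26-fold (adjusted p = 0.00501) and Socs3 by 0.64 ± 0.16 (adjusted p = 0.0424), while Socs2 fell by 0.53 ± 0.11 on the log2 scale (adjusted p = 0.0242). Socs1, an inhibitor of JAK kinases, read 11.7, 17.1 and 25.4 on the AdeCre arrays and was below the floor on the AdeLacZ arrays, a rise of at least 1.23-fold (adjusted p = 0.021). It was 13.3 on untreated array 1 and below the floor on untreated array 2. Socs1 met the filter only through the AdeCre arrays, and Trim30a only through virus-treated arrays. These were the groups where they were higher, so their calls are not independent of the filter.

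By the distance between centred profiles, the gene closest to the mean profile of the members was Irf9. Its root mean square difference over the 8 arrays was 0.07 log2 units, in 10765 genes compared. Ccl4 (0.09), Helz2 (0.10), Parp12 (0.14), Hap1 (0.15), Ifi202b (0.16), Lgals3bp (0.17) and Gbp2b (0.17) followed. Ccl4 encodes a chemokine, and Helz2, Parp12, Ifi202b and Lgals3bp are known as interferon-induced genes. The mean profile took the brightest tested probe of 7 genes, including the level Irgm1 probe and the near-background Iigp1 probe. The members themselves lay 0.20 (Ifi47) to 0.82 (Iigp1) from it.

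Markers of other cell types moved between the groups. In bulk RNA, fewer cells of a type and less RNA per cell cannot be told apart. Macrophages express many of these GTPases, and part of the macrophage list was lower after virus. Of 17 macrophage genes with a probe 15 were tested, and 6 were lower and 0 higher in AdeLacZ than in untreated cells. The median log2 change of the 15 was -0.56. Fcgr3 changed by -0.80 ± 0.12 (adjusted p = 0.00458) and C1qc by -0.81 ± 0.17 (adjusted p = 0.0204). Laptm5 and Aif1, among those that did not pass, differed by 0.01 and 0.08 on the log2 scale. In AdeCre against untreated cells 9 of the 15 were lower and 0 higher. The intensity of the macrophage list summed over all its probes, with negative values as 0, was 2217 to 2654 in untreated, 1316 to 1501 in AdeLacZ and 1145 to 1255 in AdeCre cells. For T and NK cells, known sources of interferon gamma, 13 genes had a probe, 5 were tested, and 1, the perforin gene Prf1, was higher with AdeLacZ (0.66 ± 0.12, adjusted p = 0.0102). Their summed intensity was 414 to 426, 630 to 683 and 606 to 722 in the 3 groups. Most of it came from Cd3g and the brighter Prf1 probe. These read 126 to 150 and 208 to 233 in untreated, and 198 to 212 and 343 to 407 in AdeLacZ cells. The other Prf1 probe was below the floor on all arrays, as were 5 of the 13 genes, Cd4, Cd8a, Gzmb and Ncr1 among them. Cd3g and Cd3e were above the floor on all 8, with changes of 0.48 ± 0.14 (adjusted p = 0.0698) and 0.14 ± 0.15 (adjusted p = 0.637). Erythroid genes, 9 with a probe and 6 tested, summed to 9022 to 11048, 6373 to 7346 and 2003 to 2784, and 3 were lower in AdeCre than in AdeLacZ cells. Surface ectoderm genes, 11 with a probe and 8 tested, summed to 888 to 962, 944 to 1127 and 1334 to 1482. With AdeLacZ 1 was higher, the keratin gene Krt14 (1.003 ± 0.145, adjusted p = 0.00352). Limb mesenchyme genes summed to 4603 to 4865, 4062 to 4204 and 3882 to 4159. With AdeLacZ 1 was lower, Twist1 (-0.66 ± 0.13, adjusted p = 0.0142), and 1 higher, Hoxd9 (0.47 ± 0.11, adjusted p = 0.0371). Endothelial genes, 12 with a probe and 9 tested, summed to 1555 to 1663, 1573 to 1758 and 1894 to 1987, and 1 was higher and 1 lower with AdeLacZ. The part of these cells in the GTPase values was not tested.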

How the data were processed

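Total RNA was labelled and hybridised to 8 Illumina bead arrays, and BeadStudio 2.1 was among the tools, per the submitters' processing notes. The authors deposited linear intensity values from which background had been subtracted, since 25.7% lay below 0. Sorted from low to high, the arrays were never more than 0.19 intensity units apart, as after a quantile-type normalization. The method is not given in the sources used here. A table with 32 columns named by chip position matches no label and was not used.

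Intensities were corrected with normexp (offset 16, limma 3.58.1, R 4.3.3) and put on the log2 scale, without further normalization; the offset shrinks changes of dim probes. The floor was the 95th percentile of a background whose SD came from negative values mirrored around 0. lmFit and eBayes were run with 3 groups on all 8 arrays (5 residual and 5.64 prior degrees of freedom), with Benjamini-Hochberg adjustment over 15944 probes, 2-sided, threshold 0.05, and were tested on simulated data. Where every array of a group lay below the floor, folds are bounds against it. Probe names came from the platform annotation, updated through gene identifiers (23962 of 25697 probes matched).

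The members, lists and tests were chosen with earlier results of these data known. Every member probe is named, up to 4 genes of a list by smallest p in AdeLacZ against untreated cells, and the 8 genes nearest the members' profile. Irgq, Irgc1, Ifngr2, Il10rb, Ifna6, Socs1, Socs2, unmeasured list genes and marker genes were named after their values were seen. Figures used matplotlib 3.10.9.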

Additional observations from a re-analysis of the deposited data

How the results depend on the processing

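The count of member probes that rose with AdeLacZ (9) and with AdeCre (8) against untreated cells stayed between 7 and 9 under all alternatives run, which changed the offset, correction, normalization, filter, weights, prior, samples fitted or left out an array, and 0 member probes fell in any of them. Over genes, averaging probes gave 6 in each. For AdeCre against AdeLacZ, the 1 member probe became 0 without background correction, without a filter on dim probes, with a floor on at least 3 arrays, with trend and robust prior variance, with the replicate block and, over genes, with probes averaged. Leaving out an array gave 0 to 1.

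Over all probes, AdeCre against AdeLacZ (802) gave 503 without background correction, 1420 with an offset of 50, 406 without a filter, 1432 with trend and robust fitting, 498 with the replicate block, and 202 to 799 with an array left out. AdeLacZ against untreated (834) gave 549, 1440, 486, 1500 and 442 in the same settings, and 167 (without untreated replicate 1) to 864 with an array left out. AdeCre against untreated (2183) gave 732 (without untreated replicate 1) to 2034 with an array left out, and 1473 to 2901 in the other settings.

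Same-numbered arrays of AdeLacZ and AdeCre did not deviate together (r from -0.057 to 0.023), and not every array correlated best with its own number. These values do not show whether same-numbered arrays shared a culture or batch, which was not tested. Among the 9 probes that rose with AdeLacZ, array 1 was lowest on 6 in AdeLacZ and 8 in AdeCre cells. Array 2 was highest on 6 and 7. The share of all tested probes with this order was not counted. With the replicate block, 9 and 8 member probes passed against untreated cells.

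Small changes turned sign. In AdeCre against AdeLacZ, Igtp was at 0.0186 with array weights and ran from -0.12 to 0.12 with an array left out, Irgm1 from -0.25 to 0.0139 (ILMN_1234539) and from -0.0491 to 0.055 (ILMN_2804037, -0.0054 with weights), and Irgm2 from -0.0599 to 0.22. Against untreated cells in AdeLacZ, Iigp1 was at 0.0254 with the replicate block and ran from -0.31 to 0.0084, and Irgm1 (ILMN_2804037) from -0.0149 to 0.14. The dim Gbp2 probe in AdeCre against untreated was at -0.0039 without background correction, where both groups stand at the floor. The causes were not tested. With 2 and 3 arrays in a group and dim probes for Tgtp1, Iigp1 and Gbp2, changes near the floor are bounds at best.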

Other observations

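Immunity-related GTPases are placed on vacuoles with the help of the ATG8 conjugation proteins of the autophagy pathway. Of 20 genes for ATG8 conjugation and vacuole targeting with a probe, all were tested, and 1 rose and 0 fell in AdeLacZ against untreated cells by limma's test (3 and 2 without adjustment, median -0.04). The riser was Trim21, an antibody receptor with ubiquitin ligase activity (1.22 ± 0.21, adjusted p = 0.00984), which had 2 dimmer probes at -0.27 and 0.31 that did not pass. In AdeCre against AdeLacZ cells 1 of the 20 was lower, Ulk1, the kinase that starts autophagy (-0.55 ± 0.12, adjusted p = 0.0315), beside 300 of all 10772 tested genes. A dimmer Ulk1 probe, at -0.18 (adjusted p = 0.509), did not pass. Both genes were named after their values were seen.

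Large GTPases of the dynamin, mitofusin and atlastin type that are not known as interferon-induced were also measured. Of 9 tested genes 0 rose with AdeLacZ by limma's test, also without adjustment, and Dnm1, the neuronal dynamin, fell at least 1.52-fold (adjusted p = 0.00258). It read 27.5 and 30.7 intensity units on the untreated arrays and was below the floor on the AdeLacZ arrays. Another Dnm1 probe was too dim to be tested. The median of the 9 was 0.05 in AdeLacZ against untreated and 0.19 in AdeCre against AdeLacZ cells, where 0 passed (3 higher without adjustment).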
